A study of Oryza sativa with 8 samples.

Results

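Rice makes antimicrobial diterpenoids, and 7 genes of their synthesis (CPS4, KSL4, CYP99A3, OsMAS, CYP701A8, CYP701A9 and CYP71Z7) were followed in shoots and roots of dark-grown seedlings with and without ethylene. The genes were found by symbol or synonym in the gene table of the rice assembly ASM3414082v1 and tied to the array through their gene identifiers. Each had 1 probe set, so 7 of the 57258 probe sets and 7 of the 17905 genes with a probe set of their own are described. Total RNA was hybridised to Affymetrix rice arrays, 1 array for each of 8 conditions: mhz7 and wild type (WT), each as shoot and as root, each in ethylene and in air. Seeds germinated in water at 37 °C in darkness for 2 days, and seedlings aged 3 days were given 10 ppm ethylene for 8 h at 28 °C in the dark or were left in air. The arrays titled MHZ7 were taken as the mutant, since the protocols name only a wild type and a mutant. MHZ7 is a synonym of EIN2 in the gene table. The sources used here give neither the lesion nor the cultivar, and no number of seedlings per RNA. With no second array for any condition, a difference between 2 arrays has no replicate check.

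Labdane-related diterpenoids of rice start from geranylgeranyl diphosphate in the plastid. Copalyl diphosphate synthases cyclise it, kaurene synthase-like enzymes (KSL) close the remaining rings, and cytochrome P450 enzymes and dehydrogenases add the oxygen groups. Momilactones come from the syn branch, which CPS4 opens, and phytocassanes from the ent branch, which shares its early chemistry with gibberellin synthesis. The products are induced in leaves by fungal attack and by jasmonate, and momilactones are also released from roots, where they slow the growth of other plants. EIN2 is the membrane protein that passes the ethylene signal from the receptors to the nucleus.

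The probe set of EIN2 read 1574 in mhz7 shoots in ethylene and 1532 in mhz7 shoots in air, against 747 and 859 in WT shoots in those gases, while root arrays gave 2462 and 2792 in mhz7 against 1064 and 1649 in WT. Because the lesion is not given, these levels do not test the genotype label. The arrays followed their tissue labels: 7 measured shoot markers of 8 searched (for example RBCS and CAB2R, of photosynthesis) stood in roots at a median of 0.580% to 2.45% of their shoot signal, and 6 measured root markers of 8 searched (for example NAS1 and TIP2-1) stood in shoots at a median of 1.62% to 4.55% of their root signal. No marker was listed at 0. The ratio of a 3′ to a 5′ actin control, which increases as RNA degrades, was 13.5, 9.55, 8.26 and 6.34 in shoots (mhz7 in ethylene, mhz7 in air, WT in ethylene, WT in air) and 9.32, 6.81, 6.80 and 6.62 in roots.

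The 7 genes differed by 2.43-fold (CYP701A9, a lower bound) to 12.8-fold (CYP701A8) between their lowest and highest arrays, with signals under a floor of 100 set to 100. Signals here are deposited intensities scaled to a common trimmed mean of 500. Rises and falls between 2 arrays are differences of at least 2-fold (1 on the log2 scale) with the higher signal at 200 or above. These calls rest on size alone and are not tests. In whole organs, fewer cells of a type and less RNA per cell cannot be told apart. CYP701A9 was read under the floor on 5 arrays and CYP71Z7 on 2, while the other 5 genes were above it on all 8.

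**Figure D1:**
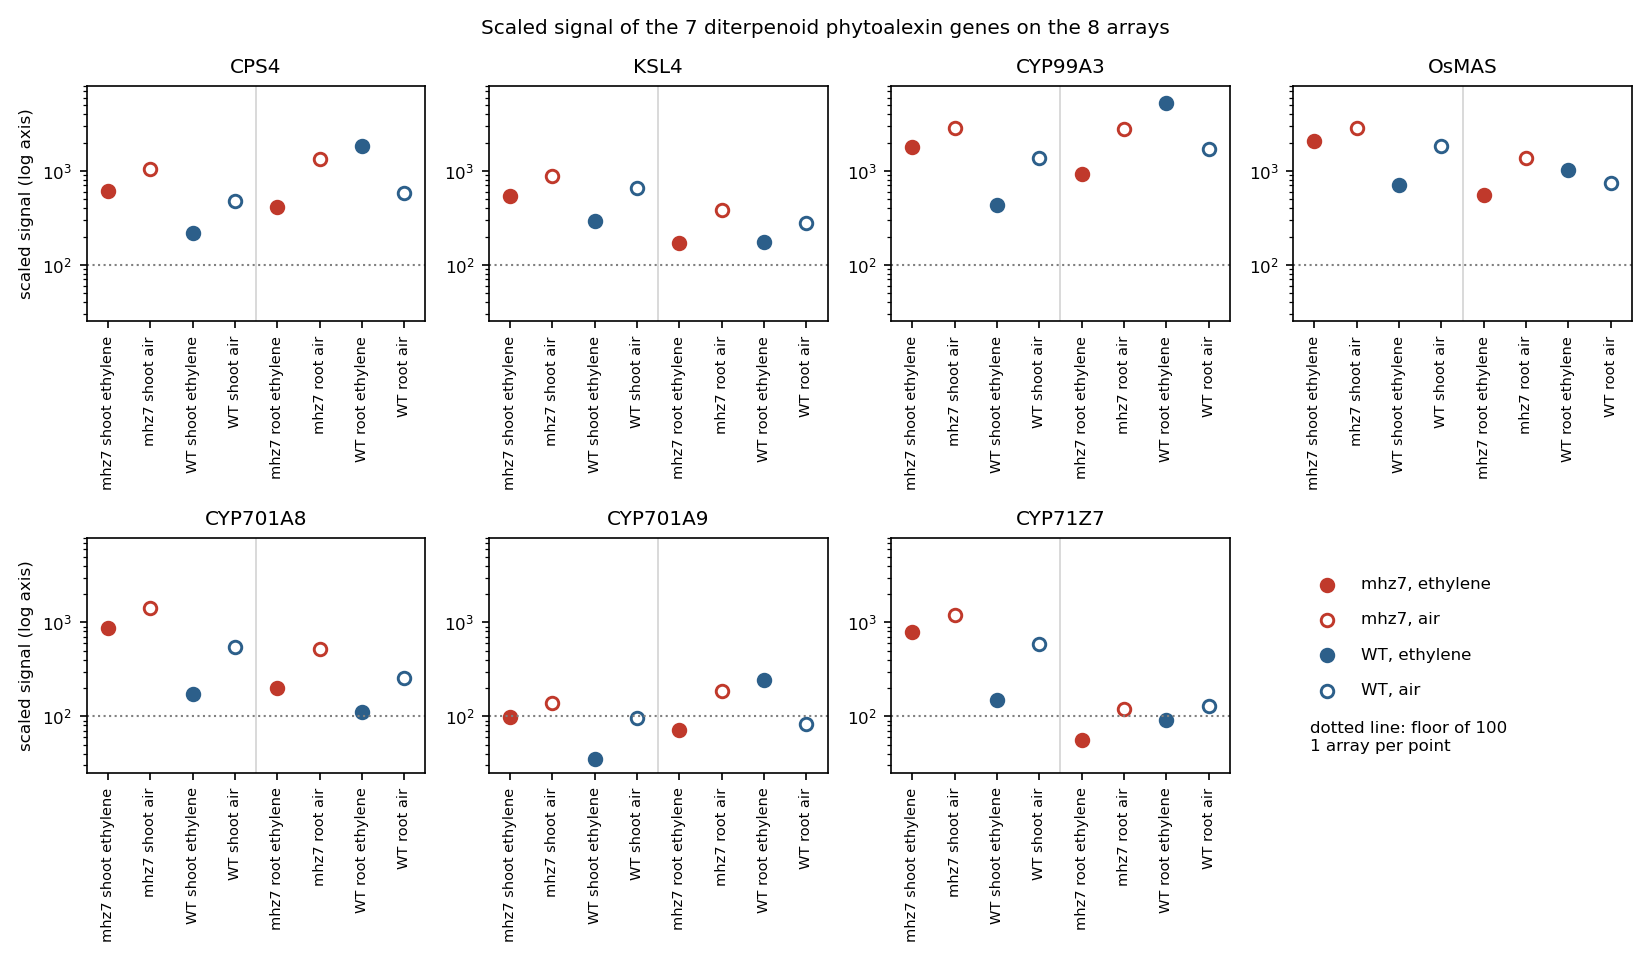
Scaled signal (log axis) of each of the 7 genes on the 8 arrays, with shoots left of the grey line and roots right of it, mhz7 in red, WT in blue, ethylene filled and air open, 1 array per point and the floor of 100 dotted. For CPS4 and CYP99A3 the WT shoot array in ethylene was lowest (219 and 429) and the WT root array in ethylene highest (1828 and 5294).

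CPS4 encodes the syn-copalyl diphosphate synthase, the entry enzyme of the momilactone branch. Its signal in shoots was 609.6 in mhz7 in ethylene, 1039 in mhz7 in air, 219 in WT in ethylene and 481 in WT in air. Its root signals were 416 and 1336 in mhz7 (ethylene, then air) and 1828 and 579.7 in WT (ethylene, then air). The WT shoot and the WT root in ethylene were thus the extremes, lowest and highest, 8.35-fold apart. The 2 mhz7 shoot arrays were both higher than the 2 WT shoot arrays, while in roots the mhz7 arrays lay on either side of WT in air.

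CYP99A3 encodes a P450 that oxidises syn-pimaradiene on the way to momilactones. Its shoot signals were 1792 in mhz7 in ethylene, 2848 in mhz7 in air, 429 in WT in ethylene and 1386 in WT in air. Root arrays read 916 and 2779 in mhz7 (ethylene, then air) and 5294 and 1722 in WT. The order of the 4 shoot arrays and the order of the 4 root arrays were the same as for CPS4, and the highest and lowest arrays lay 12.3-fold apart.

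KSL4 encodes the synthase that turns syn-copalyl diphosphate into syn-pimaradiene, between the steps of CPS4 and CYP99A3. In shoots its signal was 545 and 889 in mhz7 in ethylene and air, and 293 and 655 in WT in ethylene and air. In roots it was 172 and 380.0 in mhz7 (ethylene, then air) and 176 and 278 in WT. Ethylene arrays were below air arrays in every genotype and tissue, and KSL4 was not high in WT roots in ethylene. OsMAS, the short-chain dehydrogenase that makes momilactone A, read 2061 and 2852 in mhz7 shoots in ethylene and air, against 709 and 1857 in WT shoots. Its root signals in those gases were 558 and 1362 in mhz7 against 1009 and 744 in WT. WT roots were the exception for OsMAS, the single pair with the ethylene array higher.

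CYP701A8 and CYP701A9 belong to the P450 subfamily of ent-kaurene oxidase. CYP701A8 hydroxylates ent-cassadiene and related olefins in the phytoalexin branch. In shoots the signals were 866 and 1413 in mhz7 in ethylene and air, and 172 and 548 in WT in ethylene and air. The root signals were 199.5 and 524 in mhz7 (ethylene, then air) and 110.1 and 258 in WT. The 2 mhz7 shoot arrays were higher than every other array, and ethylene was below air in each of the 4 pairs. CYP701A9 was dim: 98.3, 139, 35.4 and 96.6 in shoots (mhz7 in ethylene, mhz7 in air, WT in ethylene, WT in air) and 71.7, 184, 243 and 83.2 in roots. It passed 200 on the WT root ethylene array alone, so it could be called only in comparisons with that array.

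CYP71Z7 encodes a P450 that hydroxylates ent-cassadiene in phytocassane synthesis. Its shoot signal was 788 in mhz7 in ethylene, 1197 in mhz7 in air, 150.2 in WT in ethylene and 595 in WT in air. In roots it was 56.6 and 119.8 in mhz7 in ethylene and air, and 91.2 and 130.3 in WT, all under 200. Its shoot-minus-root difference was the largest of the 7 genes in mhz7 in both gases and in WT in air. In WT in ethylene its root signal lay under the floor and its shoot signal under 200, so it has no rank there.

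The first question was how the genes differed between ethylene and air within each genotype. In mhz7 roots, 5 of the 7 genes fell in ethylene: CPS4 by 3.21-fold, CYP99A3 by 3.03-fold, CYP701A8 by 2.62-fold, OsMAS by 2.44-fold and KSL4 by 2.21-fold. With a floor of 200 KSL4 was at -0.93 on the log2 scale, under 2-fold. The other two, CYP701A9 and CYP71Z7, had both signals under 200. Of 20802 probe sets with a signal of at least 200, 1.27% passed 2-fold, 0.933% falling and 0.341% rising. The median log2 difference of the 7 genes was -1.29, and -1.39 for the 5 with a signal of at least 200, against 0.00 over all those probe sets. The 7 shoot markers read on these root arrays were also lower in ethylene, all 7 of them, at a median signal of 71.2 in ethylene against 243 in air, and the actin ratio was 9.32 in ethylene against 6.81 in air. Whether either has a part in the falls was not tested.

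WT roots split the pathway. CPS4 rose 3.15-fold and CYP99A3 3.07-fold in ethylene, CYP701A9 was at least 2.43-fold higher (its air signal lay under the floor), and CYP701A8 fell 2.35-fold. With a floor of 200 CYP701A9 (0.28) and CYP701A8 (-0.37) no longer passed. OsMAS (0.44), CYP71Z7 (-0.38) and KSL4 (-0.66) stayed within 2-fold on the log2 scale, so that KSL4, which acts between CPS4 and CYP99A3, did not rise with them. Of 21197 probe sets 2.17% passed, 1.10% rising and 1.06% falling. The median log2 difference of the 7 genes was 0.44, and 0.86 for the 6 with a signal of at least 200, against 0.04 over all those probe sets. A log2 difference as high as that of CPS4 (1.66) was reached by 47 probe sets, CPS4 included. In this pair, too, the 7 shoot markers were all lower in ethylene (median 279 against 801 in air), and the actin ratio was 6.80 in ethylene and 6.62 in air.

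In mhz7 shoots no gene fell 2-fold (0.618% of 21033 probe sets passed, 0.542% falling and 0.0761% rising), while the log2 differences of all 7 lay below 0, with CPS4 at -0.77, KSL4 at -0.71, CYP701A8 at -0.71, CYP99A3 at -0.67, CYP71Z7 at -0.60, CYP701A9 at -0.48 and OsMAS at -0.47. In WT shoots, 6 of the 7 genes fell in ethylene. CYP71Z7 fell 3.96-fold, CYP99A3 3.23-fold, CYP701A8 3.19-fold, OsMAS 2.62-fold, KSL4 2.23-fold and CPS4 2.20-fold, and both signals of CYP701A9 were under the floor. Of 21023 probe sets 1.99% passed, 1.43% falling and 0.557% rising. The median of the 7 genes was -1.39, and -1.53 for the 6 with a signal of at least 200, against 0.00 over those probe sets. The actin ratio was 13.5 in ethylene and 9.55 in air in mhz7 shoots, and 8.26 in ethylene and 6.34 in air in WT shoots. Root markers read on the shoot arrays were lower in ethylene as well, 6 of 6 in mhz7 (median 269 in ethylene against 881 in air) and 5 of 6 in WT (median 865 in ethylene against 1373 in air). The part of either in these differences was not tested.

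**Figure D2:**
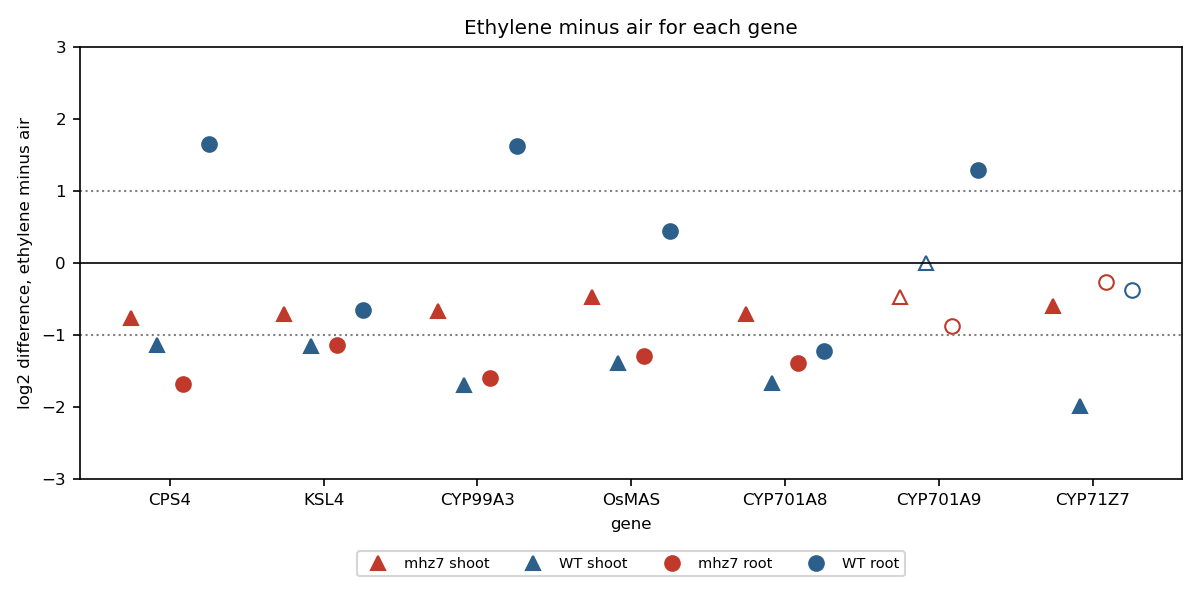
Log2 difference, ethylene minus air, of each gene in shoots (triangles) and roots (circles) of mhz7 (red) and WT (blue), 1 pair of arrays per point, with open symbols where both signals were under 200 and dotted lines at 2-fold. The WT root points of CPS4, CYP99A3 and CYP701A9 lie above 1, and every other point of these genes lies at or below 0.

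The ethylene changes in mhz7 roots and in WT roots come from 4 different arrays and can be set side by side. Among 21855 probe sets with a signal of at least 200, 15 (0.0686%) passed 2-fold in opposite directions in the 2 genotypes, and each of the 15 fell in mhz7 roots and rose in WT roots. CPS4 (-1.68 in mhz7, 1.66 in WT) and CYP99A3 (-1.60 in mhz7, 1.62 in WT) were 2 of them. The gap between the genotypes was -3.34 for CPS4, a size reached by 7 probe sets of the array, and -3.22 for CYP99A3, a size reached by 8. For OsMAS it was -1.73, reached by 0.581% of probe sets, and for CYP701A9 -2.17, with 1 array of each pair under the floor. It was -0.48 for KSL4 and -0.16 for CYP701A8, sizes reached by 13.2% and 50.3% of probe sets. For CYP71Z7 it was 0.12, but its root signals were all under 200, and in ethylene under the floor in both genotypes. No likeness of the genotypes can be read from that value.

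CPS4 went opposite ways in WT shoots (-1.14) and WT roots (1.66), as did CYP99A3 (-1.69 in shoots, 1.62 in roots), and 11 of 23421 probe sets (0.0470%) did so past 2-fold. The gap, shoot minus root, was -3.31 for CYP99A3, a size reached by 5 probe sets, and -2.79 for CPS4, reached by 19. In mhz7 no gene of the 7 changed direction between tissues, and the shoot-minus-root gaps lay between -0.34 for CYP71Z7 and 0.93 for CYP99A3. In mhz7 roots CYP71Z7 read 56.6 in ethylene, under the floor, and 119.8 in air. The floor makes its root fall a lower bound, so the sign of its gap is not settled.

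A fit over the 4 pairs of ethylene and air arrays, with the pair as a block, gave mean log2 differences below 0 for the 6 genes with a mean signal of at least 200. CYP701A8 was at -1.25 (SE 0.157) and KSL4 at -0.92 (SE 0.110), each lower in 4 of 4 pairs and each with a limma adjusted p of 0.347 over 21444 probe sets. No probe set of the array passed an adjusted p of 0.05 in this limma fit, and 1704 had an unadjusted p under 0.05. CYP71Z7 stood at -0.81 (SE 0.298, limma adjusted p = 0.607, lower in 4 of 4 pairs) and OsMAS at -0.68 (SE 0.317, limma adjusted p = 0.646, lower in 3 of 4). For CPS4 (-0.48, SE 0.546, limma adjusted p = 0.829) and CYP99A3 (-0.58, SE 0.570, limma adjusted p = 0.80) the WT root pair ran against the other 3, and without it the means were -1.20 and -1.32. The limma test of whether the ethylene change differed between genotypes, averaged over tissues, had 2 residual degrees of freedom. It called none of the 21444 probe sets (1070 had an unadjusted p under 0.05). Its estimates, mhz7 minus WT, were -1.49 (SE 0.978) for CPS4 and 0.75 (SE 0.553) for CYP71Z7, both at a limma adjusted p of 0.988.

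The second question was how mhz7 differed from WT under the same gas. In shoots the 7 genes stood higher in mhz7 or at the floor. In air CYP701A8 was 2.58-fold higher in mhz7, CPS4 2.16-fold, CYP99A3 2.05-fold and CYP71Z7 2.01-fold, while OsMAS (0.62), CYP701A9 (0.48, under 200 on both arrays) and KSL4 (0.44) stayed within 2-fold on the log2 scale. The call of CYP71Z7 ended with the values as deposited (0.97) and with log2(signal + 16) and no floor (0.99). In ethylene the gaps were wider, with CYP71Z7 5.24-fold, CYP701A8 5.04-fold, CYP99A3 4.18-fold, OsMAS 2.91-fold and CPS4 2.79-fold higher in mhz7. KSL4 was 1.86-fold higher and CYP701A9 was under the floor on both arrays. In air 3.14% of 21227 probe sets passed, 1.93% rising and 1.22% falling, and in ethylene 5.24% of 21249, 2.94% rising and 2.30% falling. In ethylene 60 probe sets stood at least as far above WT as CYP71Z7, and 70 as far as CYP701A8, each count including the gene itself. The median of the 7 genes was 1.01 in air and 1.54 in ethylene. For the 6 genes with a signal of at least 200 it was 1.02 and 1.80, against -0.02 and 0.00 over all such probe sets. The actin ratio was higher in mhz7 shoots in both gases, at 13.5 against 8.26 in WT in ethylene and 9.55 against 6.34 in WT in air, and its part was not tested.

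In roots CPS4 and CYP99A3 stood higher in mhz7 in air and lower in mhz7 in ethylene. In air CPS4 was 2.30-fold and CYP701A8 2.03-fold higher in mhz7 (of 21239 probe sets 3.69% passed, 1.95% rising and 1.73% falling), and OsMAS (0.87), CYP99A3 (0.69) and KSL4 (0.45) lay above WT by less than 2-fold. With log2(signal + 16) and no floor CYP701A8 was at 0.98, under 2-fold. CYP71Z7 (-0.12) and CYP701A9 (0.88) had both signals under 200. In ethylene CYP99A3 was 5.78-fold and CPS4 4.39-fold lower in mhz7 roots than in WT roots, and CYP701A9 at least 2.43-fold lower. In that comparison 8.32% of 21301 probe sets passed, 4.81% falling and 3.51% rising, a larger background than in any other of gas or genotype. OsMAS was lower by 0.86 on the log2 scale, and KSL4 (-0.04) and CYP701A8 (0.86) were under 200 on both arrays. CYP71Z7 was under the floor on both. These comparisons use the same 8 arrays as those of ethylene against air, so the low values of CPS4 and CYP99A3 in mhz7 roots in ethylene and their high values in WT roots in ethylene enter both. Shoot markers were lower on the mhz7 root arrays than on the WT root arrays in both gases, 7 of 7 in each, with medians of 71.2 against 279 in ethylene and 243 against 801 in air. The actin ratio was 9.32 in mhz7 roots against 6.80 in WT roots in ethylene and 6.81 against 6.62 in air. The part of either was not tested. On the shoot arrays the root markers were lower in mhz7 in 6 of 6 in ethylene (median 269 against 865 in WT) and in 5 of 6 in air (median 881 against 1373 in WT).

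**Figure D3:**
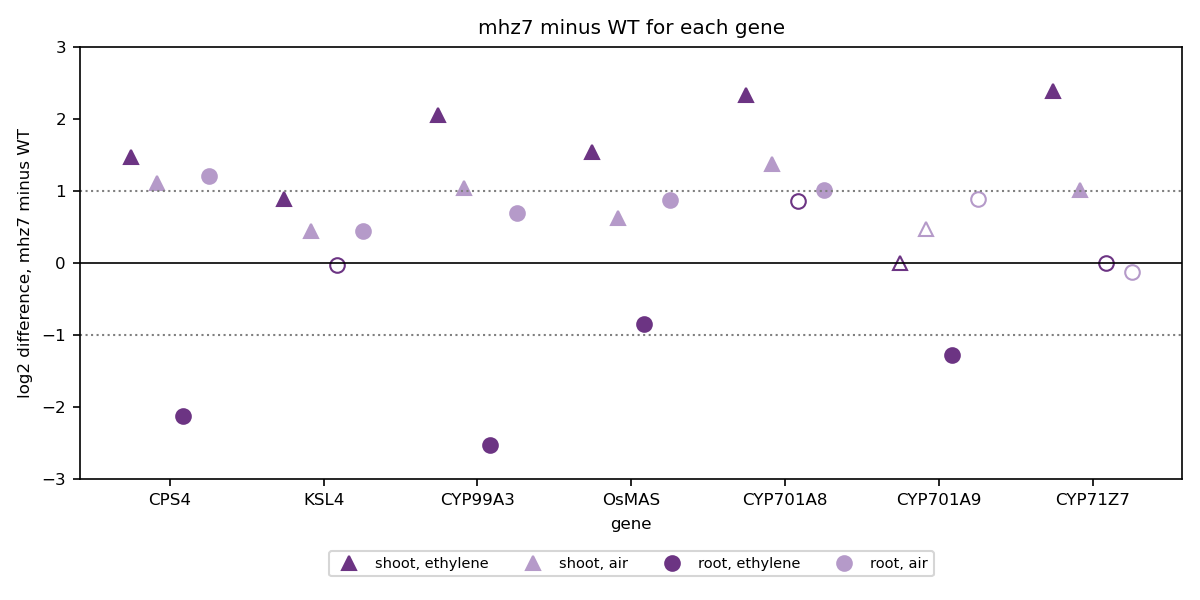
Log2 difference, mhz7 minus WT, of each gene in shoots (triangles) and roots (circles), in ethylene (dark) and air (light), 1 pair of arrays per point, with open symbols where both signals were under 200 and dotted lines at 2-fold. Shoot points lie at or above 0 for all 7 genes, and the root points in ethylene of CPS4 (-2.13) and CYP99A3 (-2.53) lie far below.

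Over the 4 pairs of mhz7 and WT arrays, CYP701A8 was the gene of the 7 with the smallest p. Its mean log2 difference was 1.39 (SE 0.256), higher in mhz7 in 4 of 4 pairs, with a limma adjusted p of 0.0699, which missed the threshold of 0.05. That p ranged from 0.0367 to 0.396 over 9 other settings of the limma fit. None of the 6 genes tested passed, against 1.45% of 21444 probe sets that did (0.886% higher in mhz7, 0.560% lower). KSL4 stood at 0.44 (SE 0.154, limma adjusted p = 0.190) and CYP71Z7 at 0.82 (SE 0.444, limma adjusted p = 0.344). CPS4 (0.41, SE 0.649, limma adjusted p = 0.749) and CYP99A3 (0.32, SE 0.754, limma adjusted p = 0.840) were lower in the root ethylene pair and higher in the other 3. Without that pair their means were both 1.26, and without the shoot ethylene pair the mean of CYP99A3 was -0.27.

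Within shoots, 5 genes (CPS4, CYP99A3, OsMAS, CYP701A8 and CYP71Z7) followed 1 order of arrays, with mhz7 in air highest, then mhz7 in ethylene, WT in air and WT in ethylene. That order was noticed in the data and then counted: 10.7% of 21741 probe sets with a shoot signal of at least 200 showed it, and 2.90% showed it with at least 2-fold between the ends, as all 5 genes did. Outside the 7 genes, all 5 further diterpenoid genes with such a signal (CYP76M8, KSL7, CPS2, CYP76M6 and CYP99A2) showed the order too, whatever its size. Orders were ranked on signals before the floor was set. The WT shoot signals of CPS2 (36.5 in ethylene, 83.7 in air) both lay under it, so their order carries little information. KSL4 differed by having WT in air (655) above mhz7 in ethylene (545). In roots CPS4, CYP99A3 and CYP701A9 shared another order, with WT in ethylene highest, then mhz7 in air, WT in air and mhz7 in ethylene. It was seen in 3.17% of 21855 probe sets, and in 0.215% with at least 2-fold between the ends, as in these 3. For CYP701A9 the last places (83.2 in WT in air, 71.7 in mhz7 in ethylene) lay under the floor and are not told apart by it. Of 3 further diterpenoid genes with a root signal of at least 200, 0 showed it.

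Tissue divided the genes in another way. KSL4 was higher in shoots in 4 of 4 pairs, by 1.22 on the log2 scale (SE 0.154, limma adjusted p = 0.00138), as were CYP701A8 (1.32, SE 0.243, limma adjusted p = 0.00552) and CYP71Z7 (2.27, SE 0.465, limma adjusted p = 0.00820). With no filter on mean signal the limma adjusted p was 0.0697 for CYP701A8 and 0.0924 for CYP71Z7, so both calls ended, and 0.0273 for KSL4. Of the 21444 probe sets of the array, 25.9% passed this limma test with shoots higher, 67.4% in either direction and 41.5% with shoots lower, so tissue calls are common in this background. CYP71Z7 was 9.99-fold higher in shoots than in roots in mhz7 in air and 4.57-fold in WT in air. Its root signal in air was 10.0% of its shoot signal in mhz7 and 21.9% in WT, and in ethylene it lay under the floor in roots of both genotypes. Single shoot markers in air stood in roots at 0.652% to 2.37% of their shoot signal in mhz7 and at 1.77% to 11.6% in WT. OsMAS was higher in shoots in 3 of 4 pairs (0.94, SE 0.393, limma adjusted p = 0.0837), and without the WT ethylene pair its mean was 1.42 with a limma adjusted p of 0.00277.

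CPS4 and CYP99A3 had no fixed tissue: their mean shoot-minus-root differences were -0.79 (SE 0.599, limma adjusted p = 0.29) and -0.73 (SE 0.762, limma adjusted p = 0.429), and without the WT ethylene pair -0.03 and 0.23. In air, CPS4 read 1039 in mhz7 shoots against 1336 in mhz7 roots and 481 in WT shoots against 579.7 in WT roots, while CYP99A3 differed between tissues by at most 0.31 on the log2 scale. In WT in ethylene CPS4 was 8.35-fold and CYP99A3 12.3-fold lower in shoots than in roots, and CYP701A9 at least 2.43-fold lower, where 28.2% of 22712 probe sets passed 2-fold (14.4% rising, 13.8% falling). In mhz7 in ethylene both were higher in shoots, by 0.55 and 0.97. By the 2-fold rule KSL4, OsMAS, CYP701A8 and CYP71Z7 were higher in shoots in mhz7 in ethylene (29.1% of 22769 probe sets passed, 15.3% rising and 13.8% falling), in mhz7 in air (28.4% of 22736, 15.3% rising and 13.1% falling) and in WT in air (27.0% of 22852, 15.5% rising and 11.6% falling).

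Position along the chromosome was compared with these patterns, since CPS4, CYP99A3, OsMAS and KSL4 lie together on chromosome 4 in the ASM3414082v1 gene table, with CYP99A2, a close relative of CYP99A3, at the end. The order is CPS4, CYP99A3, LOC4335092 (no probe set), OsMAS, KSL4 and CYP99A2. In mhz7 roots the ethylene differences along this row were -1.68, -1.60, -1.29, -1.15 and -1.11 for the 5 genes with a probe set. In WT roots they were 1.66, 1.62, 0.44, -0.66 and -0.23. All 5 thus fell in mhz7 roots, while the 2 genes at one end rose in WT roots. WT shoots gave -1.14, -1.69, -1.39, -1.16 and -1.36, past 2-fold for all 5. Of the 3 protein-coding genes listed on either side, LOC4335089 and LOC4335098, the flanking genes with a mean signal of at least 200, stayed between -0.09 and 0.18 with ethylene in every genotype and tissue. The neighbourhood was chosen for description after the values were seen.

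**Figure D4:**
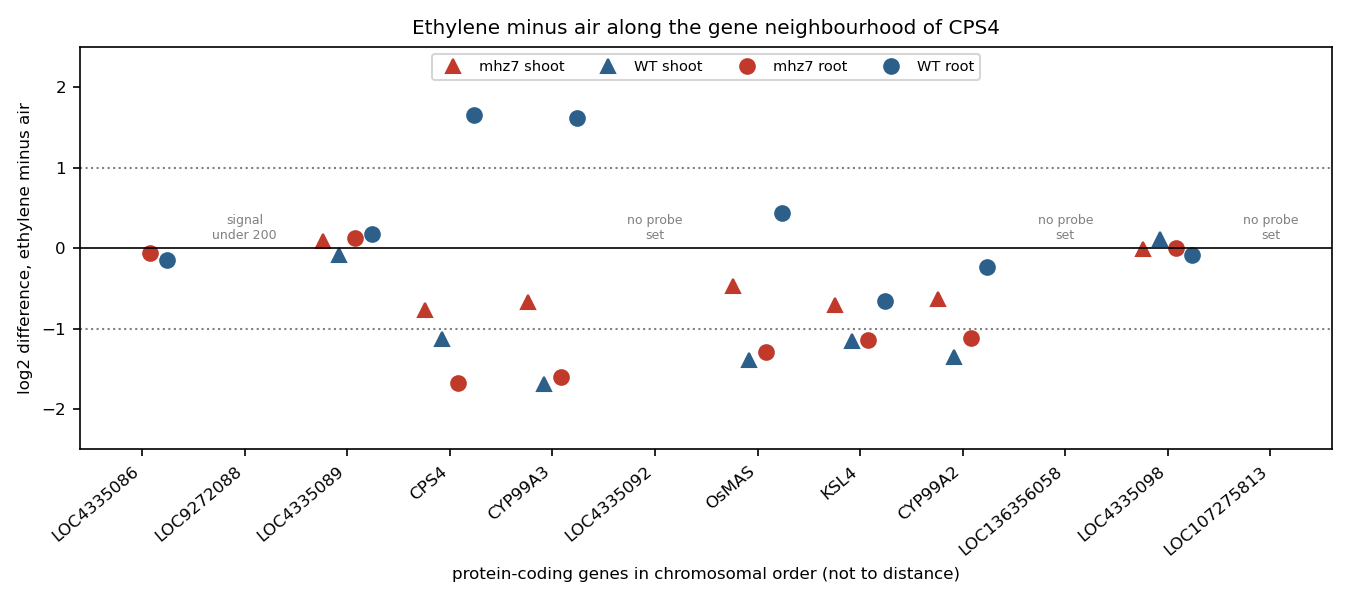
Log2 difference, ethylene minus air, of the protein-coding genes around CPS4 in chromosomal order, evenly spaced, in shoots (triangles) and roots (circles) of mhz7 (red) and WT (blue), shown where the higher signal was at least 200. CPS4 and CYP99A3 stand at 1.66 and 1.62 in WT roots, and the 5 genes from CPS4 to CYP99A2 lie below 0 in mhz7 roots and in both shoots.

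CYP71Z7 sits on chromosome 2 among other diterpenoid genes, most of them dim. CPS2, which makes the ent-copalyl diphosphate for phytoalexins, read 128 and 243 in mhz7 shoots in ethylene and air and 36.5 and 83.7 in WT shoots, so that it was at least 2.43-fold higher in mhz7 in air. KSL7, the ent-cassadiene synthase, read 185 and 292 in mhz7 shoots in ethylene and air, against 76.4 and 171 in WT shoots. CYP76M8, a P450 with several diterpene substrates, read 677 and 889 in mhz7 shoots in ethylene and air, against 396 and 557 in WT shoots. Its probe set is of a type that can bind related transcripts. CPS2, KSL7 and CYP76M8 had the shoot order of CYP71Z7, CYP76M8 at a smaller size. The WT shoot signals of CPS2 lay under the floor in both gases, and that of KSL7 in ethylene. The size of the order in CPS2 and KSL7 is thus a lower bound, and the order of the WT arrays of CPS2 is not settled. LOC4329723, which lies between CYP76M8 and KSL7 and carries no name in the table, differed with ethylene by -0.99 in mhz7 roots, 0.98 in WT roots, -0.66 in mhz7 shoots and -1.63 in WT shoots. On chromosome 6, CYP701A9 and CYP701A8 are followed in the table by KO1 (no probe set) and by CYP701A6, the kaurene oxidase gene of gibberellin synthesis. CYP701A6 stayed between -0.08 and 0.08 in all 8 comparisons of gas or genotype, on a probe set whose type can bind related transcripts.

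Beyond the 7 genes, 10 further diterpenoid genes had a probe set, of which 3 had a mean signal of at least 200. CYP99A2 was the one of these that passed 2-fold with gas, falling in mhz7 roots, with 920 in ethylene against 1991 in air, and falling in WT shoots, with 752 in ethylene against 1928 in air. It was 3.06-fold higher in mhz7 than in WT shoots in ethylene and 2.04-fold higher in mhz7 roots in air than in WT. With ethylene the list had no change among 5 genes with a signal of at least 200 in mhz7 shoots, 1 fall among 3 in WT shoots, 1 fall among 3 in mhz7 roots and no change among 3 in WT roots. In mhz7 against WT it had 1 rise in shoots in each gas (of 5 genes in air and 3 in ethylene), 1 rise of 3 in roots in air and none of 3 in roots in ethylene.

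Plastid isoprenoid genes supply the precursor, and 5 had a probe set. LOC4342614, listed as DXPS (1-deoxy-D-xylulose-5-phosphate synthase, the first enzyme of the plastid pathway), fell 2.58-fold with ethylene in mhz7 roots and rose 4.21-fold in WT roots. Its signals were 1019 and 1433 in mhz7 shoots in ethylene and air against 365 and 728 in WT shoots. Root arrays gave 374 and 963 in mhz7 against 2268 and 539 in WT. It was another of the 15 probe sets with opposite root changes. LOC4338768, also listed as DXPS, read 138 in mhz7 roots in ethylene and 123 in WT roots in ethylene and stayed within 2-fold in every comparison of gas or genotype. DXR, of the following step, was 2.25-fold higher in roots in air (4057 in mhz7 against 1800 in WT), and MCS (LOC4330320) differed by no more than 0.60 in size on the log2 scale with gas or genotype. With ethylene the list had no change among 5 genes in either shoot, and 1 fall in mhz7 roots and 1 rise in WT roots, each among 4. Between genotypes that DXPS gene was 2.79-fold higher in mhz7 shoots in ethylene and 6.07-fold lower in mhz7 roots in ethylene.

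Gibberellin genes draw on the same early precursors, and 7 had a probe set. With ethylene the list had no change among 6 genes in either shoot or among 5 in mhz7 roots, and 1 rise among 4 in WT roots. CPS1, the copalyl diphosphate synthase of gibberellin synthesis, read 370 and 445 in mhz7 roots in ethylene and air against 17.5 and 22.4 in WT roots, at least 3.70-fold and 4.45-fold higher. Ethylene against air moved it by less than 2-fold in mhz7. CYP714D1, which inactivates gibberellins, was 3.68-fold lower in mutant roots in ethylene (301 in mhz7 against 1107 in WT), and SD1, a gibberellin 20-oxidase gene, was 2.65-fold lower (142 against 376). The ethylene rise in WT roots was that of SD1 (376 in ethylene, 186 in air). KS1, the kaurene synthase gene, stayed within 2-fold in each comparison of gas or genotype.

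Of 5 regulator genes measured, WRKY76, which encodes a WRKY factor of defence, was the one that passed 2-fold with gas or genotype. It read 274 and 468 in mhz7 shoots in ethylene and air, against 124 and 266 in WT shoots, while root arrays gave 140.1 and 165 in mhz7 against 498 and 258 in WT. In ethylene it was 2.20-fold higher in mhz7 shoots and 3.55-fold lower in mhz7 roots than in WT, and it fell 2.14-fold with ethylene in WT shoots. TGAL4, listed with the synonym OsbZIP79, read 180.0 and 228 in mhz7 shoots in ethylene and air against 72.7 and 161 in WT shoots, and its root signals were 1285 and 1476 in mhz7 against 1703 and 1818 in WT. The kinase genes listed as MPK3 and MPK6 stayed within 2-fold throughout the comparisons of gas and genotype. Among 3 other defence genes, PBZ1, a PR10 protein gene, read 14449 and 22343 in mhz7 shoots in ethylene and air and 3854 and 12818 in WT shoots, the same order of arrays as the 5 genes above. PAL06, of the phenylpropanoid pathway, was 2.60-fold higher in mhz7 than in WT roots in ethylene, and the gene listed as PAL, whose 5 probe sets disagree, stayed within 0.10 on the log2 scale between the genotypes by its brightest.

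The genes most like CPS4 were ranked by the root mean square (RMS) difference of log2 signals centred within each tissue, over the 8 arrays, among 13838 genes with a mean signal of at least 200. The nearest was LOC4342614, listed as DXPS, at 0.21, and CYP99A3 came next at 0.23, against a median of 0.85 over all genes. LOC4352487 (0.24), LOC4343026 (0.31), LOC4352116 (0.32) and LOC4343027 (0.33) followed, all without a name in the table. OsMAS ranked 11 (0.38), KSL4 313 (0.68), CYP71Z7 373 (0.69) and CYP701A8 11518 (0.91). For CYP99A3 the nearest gene was CPS4. The ranking describes 1 set of arrays, whose profiles share scaling and RNA extracts.

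Around CYP71Z7 the nearest genes were LOC4336875 (0.17), LOC4348974 (0.17), LOC4334988 (0.19), LOC4333648 (0.20) and LOC4342301 (0.20), none of them named. The root signals of CYP71Z7 lie near or under the floor, so its ranking rests mainly on the shoot arrays. OsMAS ranked 91 for it and KSL4 170.

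**Figure D5:**
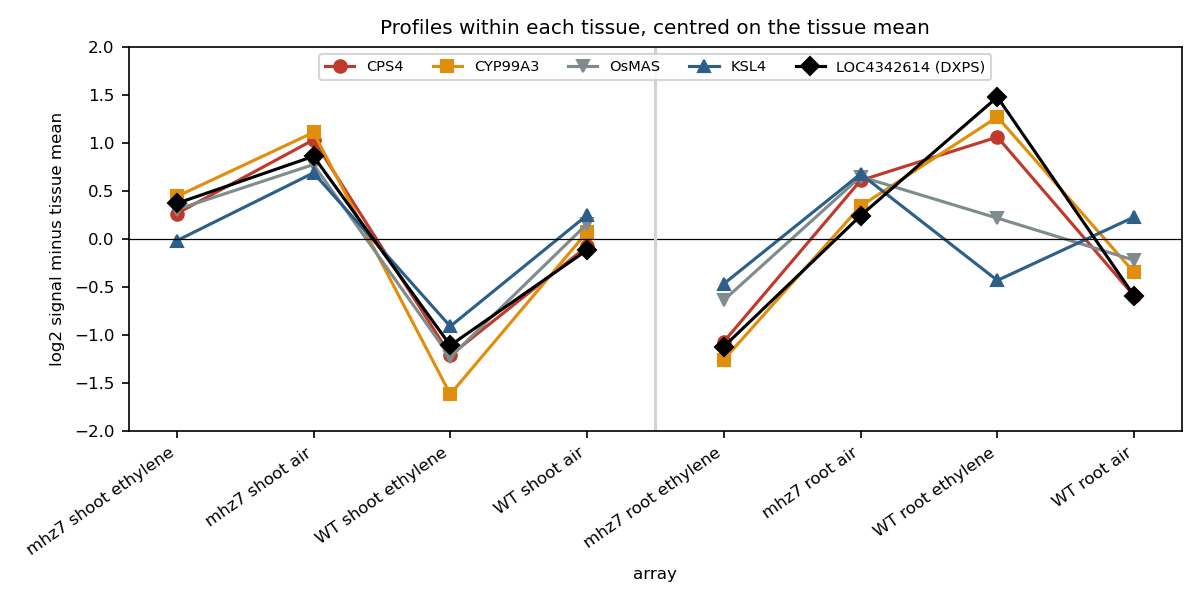
Log2 signal, floored at 100 and centred on the mean of the 4 arrays of each tissue, for CPS4, CYP99A3, OsMAS, KSL4 and LOC4342614 (listed as DXPS), with shoots left of the grey line and roots right of it. In shoots the 5 lines are highest in mhz7 in air and lowest in WT in ethylene, and KSL4 alone has WT in air above mhz7 in ethylene. On the WT root ethylene array CPS4, CYP99A3 and LOC4342614 stand high, OsMAS near its mean and KSL4 below it.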

How the data were processed

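The deposited values are intensity values on a linear scale, 1 per probe set and array, and MAS5 is the tool named in the submitters' processing notes. The sources used here give no version, scaling target or detection call. RNA (5 µg per sample) was labelled with biotin, per the labels' protocols. After 123 control probe sets were set aside, each array was multiplied by 2.00 to 2.10 so that its trimmed mean (2% off each end) was 500, then floored at 100, and log2 was taken. Under that floor lay 51.5% to 53.1% of an array, which limits what dim genes can show. Fits used limma 3.58.1 (R 4.3.3) on 21444 probe sets with a mean signal of at least 200, with the pair of arrays as a block, 3 residual degrees of freedom and Benjamini-Hochberg adjustment. CYP701A9, at a mean of 119, was left out of them. The residual in these fits is the spread between pairs, which holds any interaction of genotype, tissue and gas. Replicate spread was not measured, so the SE and p-values do not stand for it. Other values came from Python 3.11.15. On simulated data for 21444 probe sets, limma recovered 92 of 100 changes of log2 size 1 for ethylene, 78 for genotype and 75 for tissue. For the interaction it recovered 2, and of size 2 it recovered 97, 90, 96 and 77 in the same order. False calls numbered 13, 3, 9 and 4. The simulated noise was independent between arrays, and each change had the same size in every pair. Changes that differ between pairs were not simulated, so a fit without calls does not show that changes are absent. Genes were named from the ASM3414082v1 table. Members, lists and tests were chosen with earlier results of these data known. The text names all 7 members, up to 4 genes of each other list by largest difference, and the 5 genes nearest to CPS4 and CYP71Z7. The array orders, opposite changes and neighbourhoods were added after the values were seen. Where a listed gene had several probe sets, the brightest was used. No promoter or protein sequence was used here. Other scalings, floors, thresholds, filters and left-out pairs were tried.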

Additional observations from a re-analysis of the deposited data

Results flagged for a closer look

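CPS4 and CYP99A3 stood out for passing 2-fold in opposite directions in groups under the same contrast. With ethylene CPS4 was at -1.68 in mhz7 roots and 1.66 in WT roots on the log2 scale, and CYP99A3 at -1.60 and 1.62. In WT the ethylene change of CPS4 was -1.14 in shoots and 1.66 in roots, and that of CYP99A3 -1.69 in shoots and 1.62 in roots. For mhz7 minus WT in ethylene, CPS4 was at 1.48 in shoots and -2.13 in roots, and CYP99A3 at 2.06 in shoots and -2.53 in roots. In roots, mhz7 minus WT was -2.13 for CPS4 in ethylene and 1.20 in air. With 1 array per condition none of these differences was tested.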

How the results depend on the processing

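With 1 array per condition, the size rule and the floor limit these results, and signals near 100 carry the least information. The labels give 1 array per condition and no replicate numbers, so the pairs of the limma fits are matched conditions and no pairing of replicates was available. No difference of the 7 genes that passed 2-fold or limma's threshold reversed under any setting run. At 3-fold, 2 of the 7 genes passed for ethylene in mhz7 roots (0.293% of all probe sets with a signal of at least 200 did), 2 in WT roots (0.458%) and 3 in WT shoots (0.538%). For mhz7 against WT, 0 passed in roots in air (1.14%), 0 in shoots in air (0.716%) and 3 in shoots in ethylene (2.05%), and for shoot against root 1 in mhz7 in air (15.6%) and 1 in WT in air (15.3%). With a floor of 200, 2 passed for ethylene in WT roots (CPS4 and CYP99A3) and CYP701A9 passed in no comparison, and with log2(signal + 16) and no floor 1 passed for mhz7 against WT in roots in air. The share of all probe sets that passed under these 2 settings is not given here, so these counts have no background beside them. CYP71Z7 in mhz7 against WT shoots in air was at 0.97 with the values as deposited. The limma calls over all probe sets for mhz7 against WT numbered 310, and 173 with a floor of 200, 2 with no filter on signal, 1008 with no pair block and 5 to 49 with 1 pair left out. With no pair block CYP701A8 passed in that fit (limma adjusted p = 0.0367). For the interaction, 4 were called with no filter. Also with no filter, CYP701A8 and CYP71Z7 no longer passed for shoot against root. With 1 pair left out, limma called 0 probe sets for ethylene and 12401 to 13544 for tissue. Of the 5 genes nearest to CPS4, 3 were kept with centring over all 8 arrays, and of those nearest to CYP71Z7 0, or 2 with a floor of 200.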
